A study of Mus musculus with 14 samples.

Results

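The baseline profile covers mouse hepatoblast cultures that carried no mutant isocitrate dehydrogenase (IDH) and were grown on collagen. Its members are the 6 arrays, of 14 in the series, whose titles name empty vector, wild-type IDH1 or wild-type IDH2 on collagen, with 2 separate cultures of each. Embryos of wild-type mice at embryonic day 14 were the source of the cells, which had become immortal after plating at clonal density. Whether they descend from 1 clone is not stated in the labels. The medium held 10% serum, EGF at 50 ng/mL, IGF2 at 30 ng/mL and insulin at 10 µg/mL, and the plates were coated with rat tail collagen. The introduced genes were under a doxycycline-inducible system, and the protocol gives 25 ng/mL of doxycycline for experiments with IDH1. Species and 3' ends of the introduced sequences are not stated in the labels, so the high signals of Idh1 (log2 11.91 lowest, 12.06 median, 12.28 highest) and Idh2 (10.78, 10.82 and 10.90) do not check the labels. The other 8 arrays held IDH1 R132C and IDH2 R172K on collagen and vector and IDH1 R132C on uncoated plates.

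Hepatoblasts are the bipotent progenitors of the fetal liver. They give rise to hepatocytes, which secrete plasma proteins and carry out metabolism, and to cholangiocytes, which line the bile ducts. Hepatocyte genes are driven by a network of factors that includes HNF4A, the FOXA proteins and C/EBP alpha, while NOTCH signalling and SOX9 mark the biliary path, and alpha-fetoprotein is the classic secreted product of the fetal liver cell.

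Levels are log2 intensities of 1 probe set per gene, over 12393 genes, and each is given as its lowest, median and highest value over the 6 arrays. A gene was called high where it lay at or over the upper quartile of every array (log2 9.56 to 9.57) and at background where it lay at or under the lower quartile of every array (log2 4.75 to 4.77). Genes at or under the lower quartile on only some arrays were called borderline, and the remainder middling. By these rules 27.6% of all genes were high (3423 genes), 47.65% middling, 4.73% borderline and 20% at background (2479 genes). Probe sets differ in how strongly they bind, so the classes place genes roughly and do not order genes of close level. Muscle, brain, germ cell and other genes unrelated to the liver gave a measure of signal without expected expression: of 26, 15 were at background, 2 borderline, 8 middling and 1 high. The high member was the myelin gene Mbp at 9.80, 10.06 and 10.19, and its part in the limit was not tested. Their 90th percentile lay at log2 5.89 to 6.13, about the 36th to 38th percentile of all genes. Middling genes that were not above that level on 1 or more of the 6 arrays are called dim here, since there they could not be told apart from that signal. Some dim genes, such as Cebpa, Ttr, Apoa1 and Mep1a, lay above it on other arrays. In bulk RNA, fewer cells of a type and less RNA per cell cannot be told apart.

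The highest signals on collagen came from genes of translation, the cytoskeleton and simple epithelial keratins. Genes with Rpl and Rps symbols made up 34 of the 100 highest genes. With these and predicted genes left out, the 20 highest were led by the actin-binding thymosin Tmsb10 (median log2 14.69), Tpt1 (14.60), the calcium-binding protein S100a6 (14.57) and the elongation factor Eef1a1 (14.54). The same 20 held the keratin pair Krt8 and Krt18, the intermediate filament gene Vim, the galectin Lgals1, the actins Actb and Actg1, and Ctnnb1, the beta-catenin of cadherin junctions. The others were Pabpc1, Hspa8, Fau, which encodes a ribosomal protein fused to a ubiquitin-like one, Tmsb4x, Npm1, Eef1b2, Fth1, Pgk1 and Tkt. Of 10 housekeeping genes, 9 were high, and only Tbp, the TATA-binding protein, was middling at 8.28, 8.40 and 8.46.

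**Figure D1:**
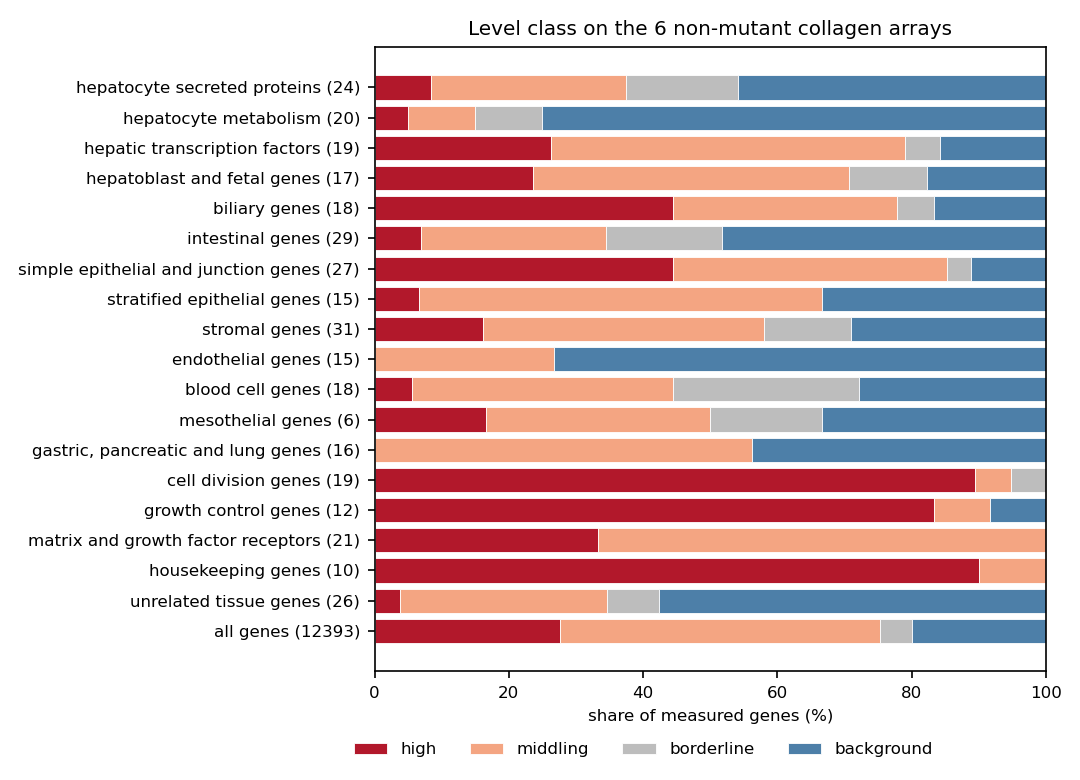
Share of the measured genes of each list that were high, middling, borderline or at background over the 6 non-mutant collagen arrays, in percent on the horizontal axis, with all 12393 genes for reference. Cell division and growth control genes were mostly high, biliary and simple epithelial genes held the next larger shares of high genes among the tissue lists, and hepatocyte metabolism and endothelial genes were mostly at background.

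The cultures carried high transcripts of several liver-specifying transcription factors. Of 19 hepatic transcription factors measured, 5 were high, 10 middling, 1 borderline and 3 at background. These shares, 26.3% high and 15.8% at background, were near the 27.6% and 20% of all genes. The list's median percentile was 36.7. The counts thus do not set this list apart from genes at large, and the levels below are those of single members. Hnf4a, the nuclear receptor central to hepatocyte identity, stood at log2 11.46, 11.53 and 11.61. Hhex, a homeobox factor of early liver outgrowth, stood at 11.61, 11.88 and 12.16, and the pioneer factor Foxa2 at 11.43, 11.46 and 11.54. Gata6, an endoderm factor, and Cebpb, a C/EBP family member of the acute-phase and stress programmes, completed the high group with medians of 11.08 and 11.77. In each of these 5 genes the 6 arrays lay within 0.6 log2 units of each other.

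Other members of the same network were much lower. Tbx3, a factor of hepatoblast expansion, was middling at 9.08, 9.21 and 9.39, as were Foxa1 (8.48, 9.07 and 9.37) and the retinoid receptor Rxra (7.89 lowest and 8.09 highest). The bile acid receptor Nr1h4 stood at a median of 6.56. Cebpa, which drives hepatocyte genes, stood at 5.69, 6.08 and 6.34 and was dim, as were Foxa3, Nr5a2, Nr0b2, Gata4 and Ppara. Onecut1, the HNF6 gene, was borderline at 4.68, 4.81 and 5.02. The xenobiotic receptors Nr1i2 and Nr1i3 were at background on every array, and so was Prox1, a homeobox gene of hepatoblast migration, with a median of 3.14 and a highest value of 3.34. Thus Hnf4a and Foxa2 were high on the same arrays on which Nr1i2 was at background. Cebpa lay under the unrelated genes' 90th percentile in replicate 2 of wild-type IDH1 (5.70 against 5.96) and of wild-type IDH2 (5.69 against 5.91). On the other arrays of the profile it lay above that level.

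The products of mature hepatocytes were for the most part low. Of 24 secreted hepatocyte proteins, 2 were high, 7 middling, 4 borderline and 11 at background, and the list's median percentile among all genes was 20.2. Rbp4, the plasma carrier of retinol, stood at log2 12.70, 12.91 and 13.11, and Apob, the structural protein of very low density lipoprotein, at 11.79, 11.96 and 12.20. Ambp (8.33, 8.66 and 10.04), the haem carrier Hpx (7.77, 7.95 and 8.96) and the copper carrier Cp (7.60, 7.91 and 9.33) were middling. Replicate 2 of the vector cultures was the highest of the 6 arrays in all 3 of these genes. Transthyretin Ttr (5.86, 6.07 and 6.21) and the lipoprotein genes Apoa1 and Apoa2 were dim, and Ahsg, Hp, Plg and Fgb were borderline. Ttr fell short of the unrelated genes' 90th percentile in replicate 1 of vector (5.95 against 6.13) and of wild-type IDH1 (5.86 against 5.89). On the other arrays of the profile Ttr lay above it.

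Albumin was among the 11 at background. Alb stood at log2 4.46, 4.58 and 4.74, between the 18th and 22nd percentiles of genes, on the arrays on which Afp was high. Apoe, Apoc3, the fibrinogen chains Fga and Fgg, prothrombin F2, Fetub, Itih4 and the antitrypsin gene Serpina1b were also at background on all 6 arrays. Enzymes of hepatocyte metabolism were lower still as a list, with 15 of 20 at background and a median percentile of 13.2. Those at background included Cps1 and Otc of the urea cycle, Arg1, the gluconeogenic Pck1 and G6pc, Cyp7a1 of bile acid synthesis and Cyp3a11 of drug metabolism, with medians between 3.26 and 4.03. Tdo2 and Gys2 were borderline, and Cyp27a1 (5.80) and Cyp8b1 (5.14) dim. Glul, glutamine synthetase, a gene of pericentral hepatocytes that many cell types also express, was the 1 high member at 10.62, 10.81 and 10.92.

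**Figure D2:**
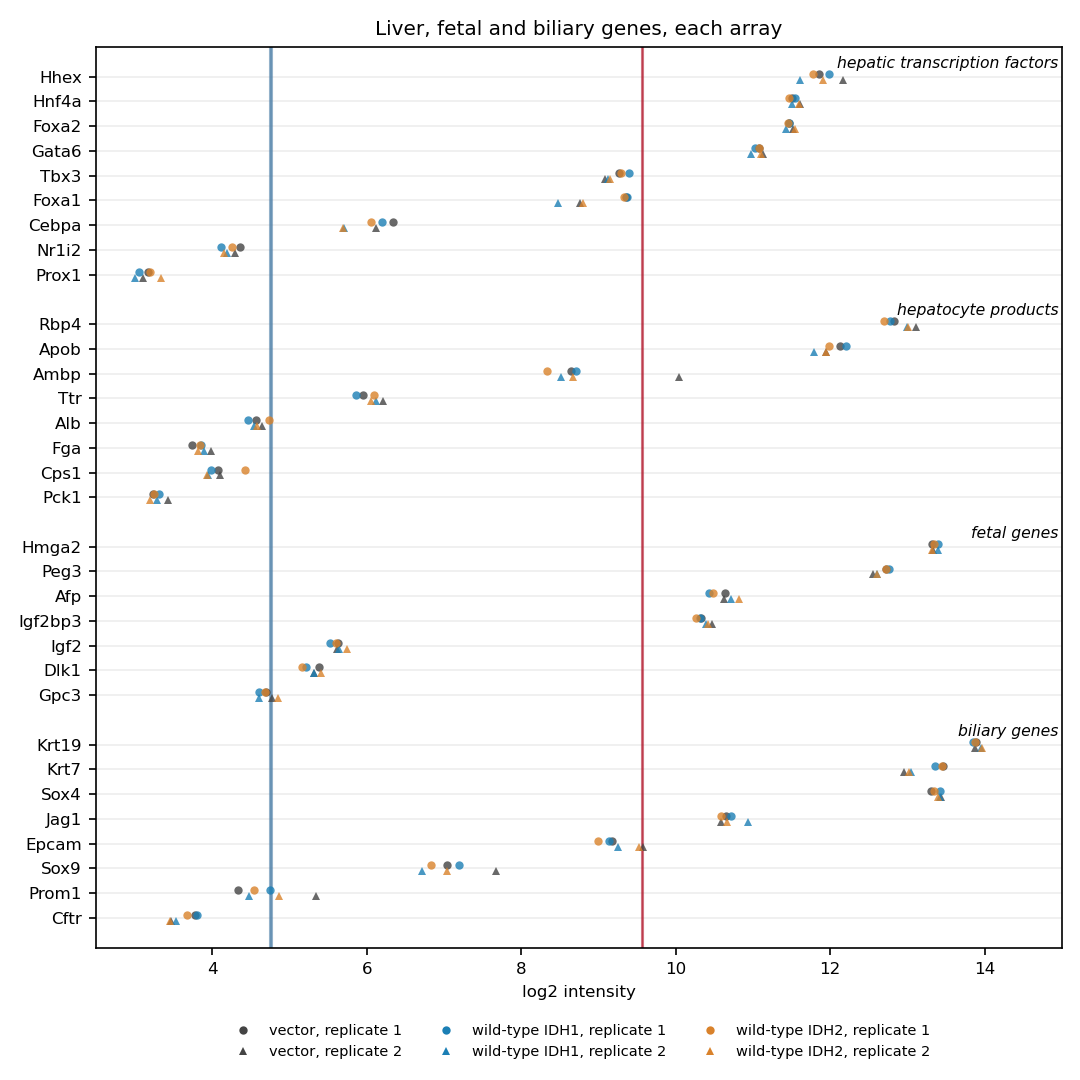
Log2 intensity of liver, fetal and biliary genes on each of the 6 non-mutant collagen arrays, 1 point per array on the horizontal axis, with vertical bands at the lower (blue) and upper (red) quartiles of the arrays. Hnf4a, Foxa2, Afp, Krt19 and Krt7 lie above the upper quartile on every array and Alb and Prox1 under the lower. Some genes spread more widely, such as Ambp from 8.33 to 10.04, across the upper quartile, and Foxa1 from 8.48 to 9.37.

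The fetal side of the label was carried by some hepatoblast genes and not by others. Of 17 hepatoblast and fetal genes, 4 were high, 8 middling, 2 borderline and 3 at background. These shares, 23.5% high and 17.6% at background, were near the 27.6% and 20% of all genes. The counts thus do not set the list apart from genes at large. Afp stood at log2 10.43, 10.64 and 10.82. Hmga2, a chromatin protein of embryonic cells, stood at 13.32, 13.34 and 13.40, the imprinted gene Peg3 at 12.55, 12.66 and 12.76, and the fetal RNA-binding protein gene Igf2bp3 at 10.26, 10.36 and 10.47. Igf2bp1 was middling with a median of 9.38. By contrast Dlk1, a surface protein by which hepatoblasts are sorted, was dim at 5.16, 5.32 and 5.41. The imprinted growth factor gene Igf2 (5.52, 5.63 and 5.74), Mest, Igdcc4 and Sall4 were dim too, Gpc3 and Cited1 were borderline, and Lgr5, Plagl1 and Bex1 were at background. The label of hepatoblast thus met high Afp, Hnf4a and keratin signals but neither Alb nor Dlk1 above the level of unrelated genes.

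The Afp level rested on some of its probe sets. Of 5 probe sets for the gene, that with the highest level represents it here, 2 others were middling with medians of 9.39 and 8.93, and 2 were at background with medians of 4.28 and 3.89. Hnf4a had 4 probe sets, with medians of 11.53, 9.81, 6.96 and 6.21, of which 2 were high and none at background. Among 345 genes, the 343 list members with Idh1 and Idh2, 144 had several, the classes of these differed in 75, and 8 genes had both a high and a background probe set: Afp, Ctnna1, Itgav, Itgb1, Mbp, Mycn, Pkp2 and Top2a.

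Albumin and alpha-fetoprotein belong to 1 gene family and lie next to each other on mouse chromosome 5, and in these cultures Afp was high and Alb at background. Krt8 and Krt18, neighbours on chromosome 15 whose proteins pair into the same filament, were both high. The promoter windows of these 4 genes, from 250 bases before to 50 bases after the RefSeq start (GRCm38.p6), are shown for that contrast, 5' to 3' along each gene, with capitals for matches to the motifs named after them. Alb lies at chr5:90460620-90460919 on the plus strand, Afp at chr5:90490464-90490763 plus, Krt8 at chr15:102004293-102004592 minus and Krt18 at chr15:102027966-102028265 plus.
Alb: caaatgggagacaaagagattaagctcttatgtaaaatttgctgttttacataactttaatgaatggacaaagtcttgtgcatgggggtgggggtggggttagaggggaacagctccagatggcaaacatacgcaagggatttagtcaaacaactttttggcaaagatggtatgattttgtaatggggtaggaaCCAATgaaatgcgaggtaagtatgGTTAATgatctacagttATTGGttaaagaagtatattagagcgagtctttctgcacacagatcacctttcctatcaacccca
Afp: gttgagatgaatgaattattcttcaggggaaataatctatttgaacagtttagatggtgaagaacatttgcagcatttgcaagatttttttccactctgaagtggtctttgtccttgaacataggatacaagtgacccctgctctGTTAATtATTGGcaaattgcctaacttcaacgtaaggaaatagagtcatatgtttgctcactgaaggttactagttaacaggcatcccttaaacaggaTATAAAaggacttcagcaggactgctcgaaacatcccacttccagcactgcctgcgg
Krt8: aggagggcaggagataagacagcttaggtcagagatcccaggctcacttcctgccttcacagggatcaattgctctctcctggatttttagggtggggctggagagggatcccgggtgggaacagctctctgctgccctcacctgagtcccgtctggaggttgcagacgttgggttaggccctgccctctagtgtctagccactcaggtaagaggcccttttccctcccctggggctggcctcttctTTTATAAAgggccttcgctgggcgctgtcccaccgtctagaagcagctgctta
Krt18: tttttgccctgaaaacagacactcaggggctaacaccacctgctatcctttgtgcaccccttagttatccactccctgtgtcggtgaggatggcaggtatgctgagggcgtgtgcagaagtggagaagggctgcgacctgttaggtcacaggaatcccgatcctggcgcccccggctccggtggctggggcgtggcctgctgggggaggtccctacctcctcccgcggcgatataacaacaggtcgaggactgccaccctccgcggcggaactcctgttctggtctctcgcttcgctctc
The motifs were searched on both strands. GTTAAT, a site bound by the HNF1 proteins, began at -32 relative to the start of Alb and at -105 relative to that of Afp, and was found in 7.1% of 32851 promoter windows of the same length. CCAAT, searched also as ATTGG, matched at -56 and -15 in Alb and at -98 in Afp, and in 37.41% of windows. The TATA box letters TATAAA matched at -7 in Afp and on both strands, overlapping, at -3 and -1 in Krt8, and in 13.62% of windows. An HNF4 type motif (CAAAGTCCA, 0.47% of windows), the AP-1 motif TGACTCA (5.2%) and the GC box GGGCGG (35.66%) had no match in the 4 windows, and Krt18 held no match to any motif searched. The high and the background member of the first pair shared the HNF1 and CCAAT letters. These matches describe the letters of the windows only.

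Biliary genes were on the whole higher than hepatocyte products. Of 18 biliary genes, 8 were high, 6 middling, 1 borderline and 3 at background, and their median percentile was 60.9. That is 44.4% high and 16.7% at background, against 27.6% and 20% of all genes, so only the high share stood apart. The high count depended on the choice of probe set. With probe sets averaged per gene it was 5 of 18, beside 2 of 24 secreted hepatocyte proteins and 2342 of all 12393 genes. The biliary and progenitor keratins led the list, with Krt19 at log2 13.85, 13.88 and 13.97 and Krt7 at 12.95, 13.19 and 13.46. Sox4, a SOX factor of early bile ducts, stood at 13.31, 13.41 and 13.44. The surface proteins Cd24a and Tspan8 had medians of 13.61 and 13.54. Members of the NOTCH pathway were high as well, the ligand Jag1 at 10.58, 10.66 and 10.93, the target Hes1 at 10.26, 10.38 and 10.53 and the receptor Notch2 at 9.78, 9.93 and 10.15. Epcam, an adhesion protein of progenitors and ducts, lay under the upper quartile on 5 arrays and about at it on the sixth, at 8.99, 9.21 and 9.57. Sox9, the factor that marks the ductal plate, was middling at 6.72, 7.04 and 7.67, and above the unrelated genes on every array. Transporters and other genes of the mature duct were split. The anion exchanger Slc4a2, which exports bicarbonate, stood between 7.99 and 8.18 and the cilium gene Pkhd1 at 8.15, 8.22 and 8.56, both middling and above the unrelated genes on every array. The chloride channel Cftr (3.46, 3.60 and 3.80), the water channel Aqp1 (3.78, 3.94 and 4.17) and the bile acid carrier Slc10a2 (3.21, 3.28 and 3.38) were at background. Prom1 was borderline, at or under the lower quartile on 4 of 6 arrays, and Muc1 and St14 were dim.

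A few intestinal genes stood out against a list that was mostly low. Of 29 intestinal genes, 2 were high, 8 middling, 5 borderline and 14 at background, with a median percentile of 20.6. Krt20, a keratin of intestinal epithelium, stood between log2 11.88 and 12.10, and the intestinal cadherin Cdh17 at 11.29, 11.51 and 11.79. Cdx2, the homeobox factor of the intestine, was middling at 9.33, 9.48 and 9.71, and Vil1, the villin of the brush border, at 8.30, 8.52 and 8.93. The other 6 middling members were dim, among them the mucosal protease Mep1a (6.07), Apoa4 (5.77) and Mttp (5.65). Cdx1, the homeobox relative of Cdx2, was at background at 3.70, 3.92 and 4.08. The lactase gene Lct, the glucose carrier Slc5a1, the calcium-binding S100g, the goblet cell genes Agr2 and Clca1, and the Paneth cell gene Lyz1 were at background as well. The secreted peptides Guca2b, Reg4, Tff3 and Spink4 and the signal Ihh were borderline. Genes of stomach, pancreas and lung had 0 of 16 high members and 7 at background. Tff1, a stomach trefoil peptide, stood highest at 7.93, 8.13 and 8.19, while the pancreatic factor Pdx1 was dim and Ptf1a, Nkx6-1 and Sox2 were at background.

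Genes of simple epithelium included many of the highest on the arrays, next to claudins and regulators that were lower. Of 27 simple epithelial and junction genes, 12 were high, 11 middling, 1 borderline and 3 at background, with a median percentile of 62.0. Krt8 stood at log2 14.29, 14.32 and 14.35 and Krt18 at 14.12, 14.15 and 14.17. E-cadherin Cdh1 stood at 12.46, 12.57 and 12.66, with its partners Ctnnb1 and Ctnna1 at medians of 14.05 and 13.56. The desmosomal genes Dsp and Dsg2, the tight junction scaffold Tjp1 and the protease inhibitor Spint2 were also high. Claudins and epithelial regulators ranged from middling to background. The splicing regulator Esrp2 was middling between 8.83 and 9.08, and Cldn3 at 5.96, 6.39 and 6.51, while Cldn7 was at background at 4.08, 4.21 and 4.33, Cldn4 (5.60) and Cldn6 (4.97) were dim, as were Ocln and the factor Grhl2, Ovol1 was borderline, and Esrp1, the paralog of Esrp2, and the factor Ehf were at background. Of 15 stratified epithelial genes only the p53 target Perp was high (10.86, 10.95 and 10.98), 9 were middling and 5 at background. Sprr1a (8.14), Krt10 (7.54) and Krt14 (6.59) were middling and above the unrelated genes, whereas Trp63, the master factor of stratified epithelium, and Krt17 were at background.

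Some mesenchymal genes were high beside the epithelial ones, in a list that was low on the whole. Of 31 stromal genes, 5 were high, 13 middling, 4 borderline and 9 at background, with a median percentile of 29.9. That is 16.1% high and 29.0% at background, against 27.6% and 20% of all genes, and 9 of the 13 middling members were dim. Vim stood at log2 14.04, 14.07 and 14.15, as high as the keratin genes on the same arrays within the limits of comparing probe sets. N-cadherin Cdh2, which hepatocytes also carry, stood at 11.86, 11.95 and 11.99, with the matrix genes Fn1 (11.68, 11.97 and 12.33) and Sparc (11.81, 11.96 and 12.09) at like levels and S100a4 at 11.01, 11.32 and 11.58. The transcription factor Zeb1, a repressor of Cdh1, was middling at 9.34, 9.48 and 9.53, and Snai2 at 7.80, 8.22 and 9.26. Fibroblast and stellate cell genes of the list ran from middling to background. The fibrillar collagen gene Col5a2 was middling at 8.49, 8.76 and 9.04, above the unrelated genes on every array. Col6a1 spread from 5.55 to 7.21 around a median of 6.35. It counts as dim, since in vector replicate 1 it lay under the unrelated genes' 90th percentile (5.55 against 6.13). Col1a1 was dim at 5.24, 5.32 and 5.46 and Col1a2 at 4.88, 5.08 and 5.28, while Col3a1 (3.73, 3.92 and 4.04), Lum, Pdgfra, Postn, Thy1, Twist1, Fap, Dpt and the stellate cell gene Lrat were at background. Pdgfrb, Dcn, Ngfr and Snai1 were borderline.

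**Figure D3:**
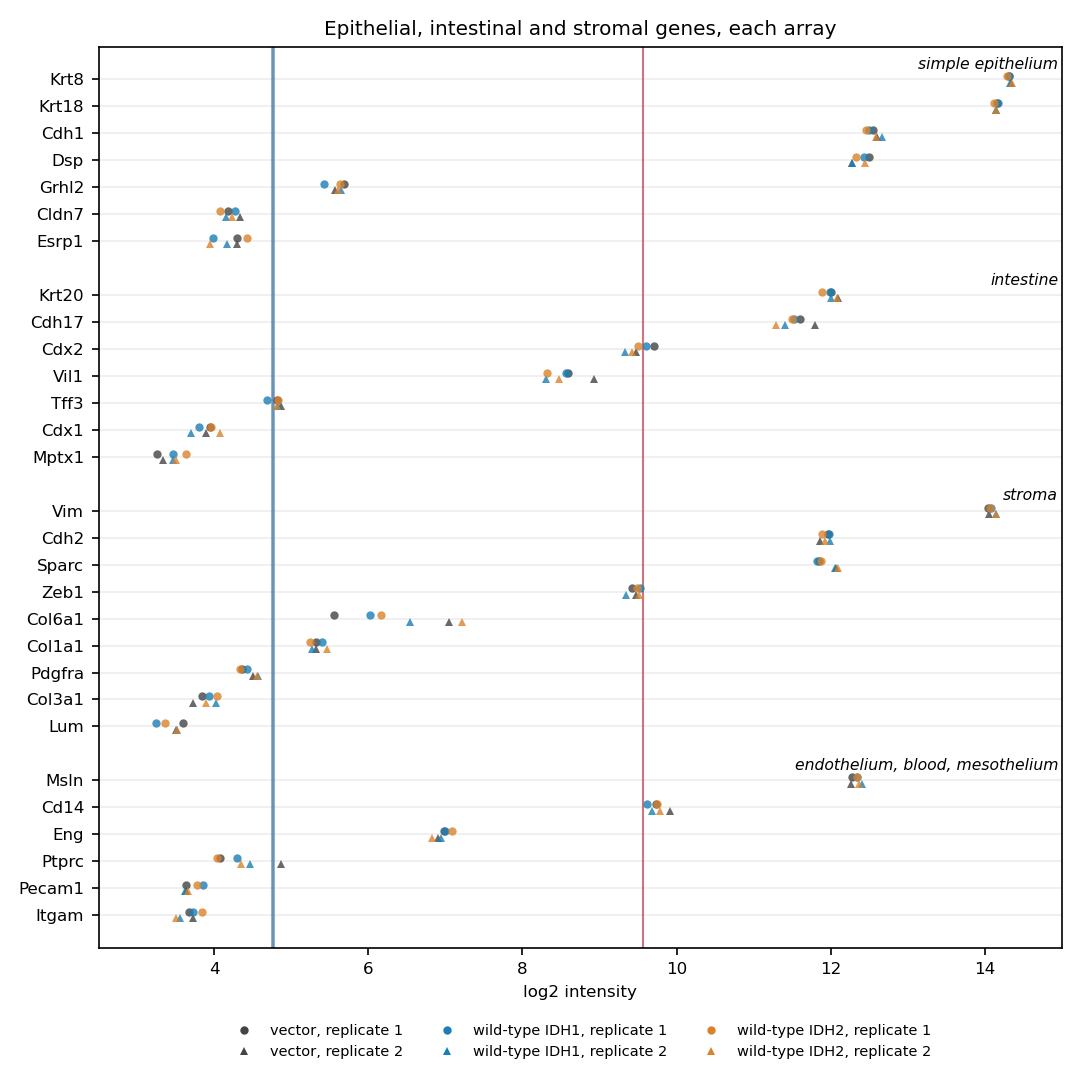
Log2 intensity of intestinal, epithelial, stromal, blood and other genes on each of the 6 non-mutant collagen arrays, 1 point per array on the horizontal axis, with vertical bands at the lower (blue) and upper (red) quartiles of the arrays. Vim, Cdh1, Krt8 and Krt18 lie above the upper quartile on every array, Cdx2 lies around it, Vil1 under it, and Col3a1 and Cdx1 under the lower quartile.

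Other cell types that fetal liver holds left little signal. Of 15 endothelial genes none was high, 4 were middling and 11 at background, including Pecam1 (3.62, 3.64 and 3.86), Cdh5, Vwf, Tek, Cd34 and Emcn. The receptors Eng (6.96) and Flt1 (6.49) were above the unrelated genes, and Kdr and Esam were dim. Of 18 blood cell genes 1 was high, 7 middling, 5 borderline and 5 at background. That is 5.6% high and 27.8% at background, against 27.6% and 20% of all genes. Of the 7 middling members 6 were dim. The other, the macrophage gene Csf1r, lay above the unrelated genes on every array, at log2 6.05, 6.10 and 6.17. The high member was the lipopolysaccharide co-receptor Cd14, at log2 9.62, 9.74 and 9.92, while the pan-leukocyte gene Ptprc was borderline (4.04, 4.32 and 4.87), as was the macrophage gene Adgre1, and Itgam, Tyrobp, Cd52, Gata1 and the globin gene Hba-a1 were at background. Of 6 mesothelial genes Msln, mesothelin, was high at 12.26, 12.34 and 12.41, with Wt1 borderline and Upk3b and Pdpn dim. The list medians of the 6 arrays ran from 4.22 to 4.41 for endothelial, from 4.69 to 4.97 for blood cell and from 4.98 to 5.12 for mesothelial genes.

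Genes of the dividing cell were high almost throughout. Of 19 cell division genes, 17 were high, 1 was middling and 1 borderline, with a median percentile of 90.7. The replication clamp Pcna stood at log2 12.83, 13.04 and 13.15, the proliferation marker Mki67 at 11.78, 12.29 and 12.38 and topoisomerase Top2a at 12.14, 12.40 and 12.51. Thymidylate synthase Tyms was borderline at 4.47, 4.89 and 5.28. Among 12 growth control genes 10 were high, led by Mycn (13.47, 13.79 and 14.27), Ccnd1 (13.47, 13.49 and 13.53) and Ccnd2 (13.01, 13.11 and 13.18). The other 2 probe sets of Mycn had medians of 4.98 and 4.38, so its class rests on 1 probe set. Inhibitors of the cell cycle were high alongside, with Cdkn1a at a median of 11.32, Cdkn2b at 11.08 and Cdkn2a at 9.73, 9.85 and 10.00. The telomerase gene Tert was at background at 4.30, 4.50 and 4.61.

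Receptors for the matrix and for the factors of the medium included none at background. Of 21 such genes, 7 were high and 14 middling, of which 5 were dim. That is 33.3% high, near the 27.6% of all genes, and 0% at background, against 20% of all genes. Both counts depended on the choice of probe set. With probe sets averaged per gene, 2 of the 21 were high and 1 was at background. The integrin chains Itgav (log2 12.60, 12.68 and 12.80), Itga6 (12.14, 12.23 and 12.32) and Itgb1 (11.80, 11.88 and 12.16) were high, as was the collagen receptor kinase Ddr1 (11.80, 11.89 and 12.01). Itgav and Itgb1 had background probe sets as well. Itga2, the chain of the main epithelial collagen integrin, was middling at 7.87, 7.90 and 8.01. Of receptors for the added factors, Egfr stood at 9.39, 9.59 and 9.99, Igf1r at 8.43, 8.62 and 8.77 and Igf2r, which clears IGF2, at 9.83, 9.95 and 10.10. Insr, the insulin receptor, was dim at 5.30, 5.34 and 5.37, and the hepatocyte growth factor receptor Met at 5.62, 5.80 and 6.16. Irs1, the adaptor downstream of the insulin and IGF1 receptors, was high at a median of 10.07.

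The 6 arrays gave nearly the same profile. Of 12393 genes 11397 (92.0%) had the same class on every array, and none was at background on 1 array and high on another. The median SD of a gene over the 6 arrays was 0.097 log2 units and the 95th percentile 0.23, and 4 genes had an SD over 1. By limma's moderated F test over the means of the 3 groups, with Benjamini-Hochberg adjustment, 0 of 12393 genes were called (percent called 0). At an unadjusted p under 0.05 lay 85 genes, fewer than a 0.05 share of all genes. The fit leaves the shift with the replicate number, described below, in its spread, so 0 calls do not show that the groups were alike. With the replicate number as a block over the 14 arrays the count was also 0 (89 at an unadjusted p under 0.05). Over the 6 arrays alone, with the same block, a fit added after the data had been seen, limma called 1 gene, Mycn (adjusted p = 0.000414). In that fit 331 genes lay at an unadjusted p under 0.05. Mycn stood at log2 14.13 and 14.27 in vector cultures, 13.47 and 13.72 with wild-type IDH1 and 13.70 and 13.85 with wild-type IDH2, so that both vector arrays lay above the other 4. Arrays of the same group correlated across genes at r = 0.9964 to 0.9976 and arrays of different groups at r = 0.9968 to 0.9989. In simulated data this F test recovered 52.2%, 95.5% and 100% of genes with group differences of log2 0.5, 1 and 2. The simulated arrays varied independently, without a shift by replicate number, so these rates do not give the recovery on the real arrays.

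The largest differences among the 6 arrays followed the replicate number. The genes that varied most were Trib3, Chac1, Nupr1 and Cth, which are known targets of the ATF4 stress response, and all 3 arrays numbered 2 lay above all 3 numbered 1. Chac1, which degrades glutathione, stood at log2 7.18 (vector), 7.53 (wild-type IDH1) and 7.79 (wild-type IDH2) on the arrays numbered 1 and at 10.65, 10.91 and 10.38 on those numbered 2. Trib3 stood at 6.74, 6.97 and 7.41 against 10.03, 10.73 and 9.75, and the stress protein gene Nupr1 at 6.92, 7.36 and 7.53 against 9.68, 10.18 and 9.88. The ranges did not overlap in any of these genes, and each moved from middling to above the upper quartile. The serine synthesis enzyme Psph, the transaminase Gpt2, the cystine carrier Slc7a11 and the factor Atf5 were likewise higher on the arrays numbered 2. In the other direction, the early response phosphatase Dusp1 had a mean of 11.01 on the arrays numbered 1 and of 9.87 on those numbered 2.

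**Figure D4:**
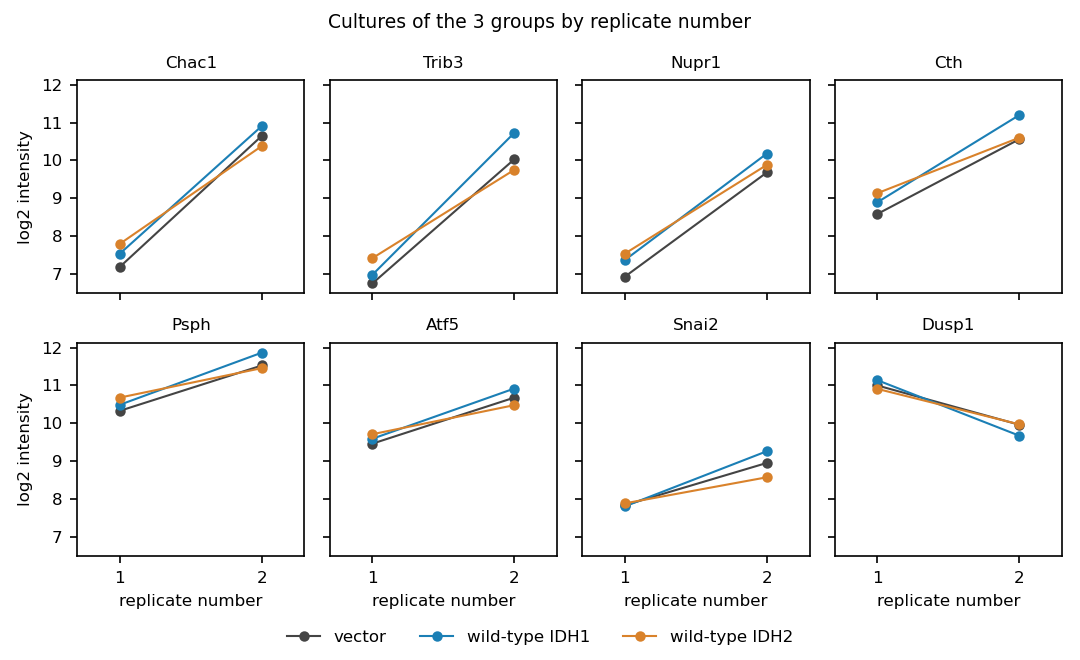
Log2 intensity (vertical axis) of 8 genes that differed with the replicate number (horizontal axis) on the 6 non-mutant collagen arrays, 1 point per array, with a line joining the arrays of a group. Chac1, Trib3, Nupr1, Cth, Psph, Atf5 and Snai2 are higher on all 3 arrays numbered 2 than on all 3 numbered 1, and Dusp1 is lower.

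A term for the replicate number was fitted after the data had been seen, over the 6 arrays with limma, and since it was chosen for this pattern its calls describe these arrays and are no independent test. It called 1057 of 12393 genes (8.53%), 535 higher (4.32%) and 522 lower (4.21%) on the arrays numbered 2, with 31 at least 2-fold apart, 28 of them higher. Chac1 differed by log2 3.15 (SE 0.14) and Nupr1 by 2.65 (SE 0.09). The count lay between 580 and 732 with any 1 array left out, lowest without wild-type IDH1 replicates 2 (580) and 1 (583), with 674 and 675 without those of wild-type IDH2. It was 261 without an intensity trend. Of the 31 genes, 31 had the same sign between the replicates of R132C and 27 between those of R172K on collagen, and 7 and 4 of them were at least 2-fold apart there. On uncoated plates 22 had that sign in vector and 17 in R132C cultures, with 0 and 1 at least 2-fold apart. The share of all genes that kept their sign was not computed, so these counts have no reference beside them. Trib3 stood at 6.24 and 6.59 in the vector cultures and at 6.87 and 6.78 in the R132C cultures on uncoated plates, so the separation seen on collagen was not seen there. What the number stands for is not given in the sources used here, and its cause was not tested.

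Members of the lists also moved with the number, and among those called only Snai2 and Col6a1 were at least 2-fold apart. Of 19 cell division genes 12 were lower on the arrays numbered 2, against 4.21% of all genes, and their median difference was log2 -0.25, against -0.003 for all genes. Tk1 differed by -0.47 (SE 0.06) and Mcm6 by -0.31 (SE 0.05), and the class of both remained high. Of 31 stromal genes 5 were higher and 1 lower, against 4.32% and 4.21% of all genes. Snai2 stood at 7.84 against 8.93 in the mean and Col6a1 at 5.91 against 6.93, higher, and S100a4 at 11.54 against 11.10, lower. Krt7 was lower by 0.41 (13.42 against 13.00) and Foxa1 by 0.67 (9.35 against 8.68), while Epcam was higher by 0.35 (9.10 against 9.45). Cebpa was lower as well (6.19 against 5.84). With the 3 arrays of each number classed by themselves, 11770 of 12393 genes (95.0%) and 320 of 343 list members had the same class under both numbers, and none was high under 1 and at background under the other.

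The classes also held for most genes in the remaining arrays. Of the 3423 high genes 2993 (87.4%) were high on all 8 other arrays, and of the 2479 at background 2152 (86.8%) stayed at or under the lower quartile. Of the background genes, 4 lay above the lower quartile on both arrays of R132C on collagen, 8 of R172K on collagen, 87 of vector on uncoated plates and 44 of R132C on uncoated plates. C9, a terminal complement component of liver, was the 1 background gene that was high on both arrays of another group: it stood at log2 4.52 to 4.73 on the 6 arrays and at 9.77 and 9.71 on vector cultures on uncoated plates. No gene that was high on the 6 arrays was at background on both arrays of any other group.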

How the data were processed

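RNA of 14 mouse cultures was measured on Affymetrix mouse expression arrays, 2 cultures for each of 7 groups, and 6 of these arrays form the profile. The deposited values are linear probe set intensity values that the authors made with the RMA method, named without a version in the submitters' processing notes. Log2 was taken. Of 22690 probe sets, 64 were controls, 20380 others carried 1 gene symbol, 691 several, and 1555 were not in the platform table. For each of 12393 genes the probe set that had 1 symbol and the highest mean over the 14 arrays was taken. Quartiles were taken per array over the non-control probe sets, and percentiles over genes. RMA makes the arrays' distributions nearly equal (medians 144.9 to 147.5), so the quartiles are close by construction, and the number of arrays limits the precision.

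The members and the 18 lists (385 places, 343 measured, the others not analysed here) were chosen with earlier results of these data known. Up to 8 members at each end of a list by mean rank, borderline members, 20 top genes and a fixed set could be named. Igf1r, Pkhd1, Esrp2, Cldn3, Col6a1 and the genes that follow the replicate number were named after their values were seen.

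A model of the 7 group means was fitted by limma 3.58.1 (R 4.3.3) to the 14 arrays (7 residual and 5.67 prior degrees of freedom), with calls at a Benjamini-Hochberg adjusted p under 0.05. On simulated data, where 200 of 12393 genes were changed and arrays held no shift by replicate number, it made 10 false calls. Same-numbered arrays of the 3 groups deviated together (r = 0.49, 0.48 and 0.42 across genes), so the numbers were treated as pairing the cultures and a replicate block was tried. The replicate number term had 2 residual and 8.48 prior degrees of freedom. Python 3.11.15 with pandas 2.3.3 and numpy 2.4.6 made the classes, and promoter windows came from RefSeq, GRCm38.p6. The alternatives tried were other background limits, averaging the probe sets of each gene, quartiles over genes, the class of the mean level, the vector arrays alone, each array left out and other settings of the fit.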

Additional observations from a re-analysis of the deposited data

How the results depend on the processing

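With any 1 array left out the counts of high genes lay between 3428 and 3443 and those at background between 2495 and 2521, and each list's count stayed within 1.5 times its main value, as it did with the 2 vector arrays alone and with the arrays numbered 1 alone. With the background limit at the 35th percentile, 3806 genes were at background, and the lists had 5 biliary, 13 blood cell, 1 cell division, 12 gastric, pancreatic and lung, 7 transcription factor, 8 fetal, 2 receptor, 4 mesothelial, 5 simple epithelial and 17 stromal genes there. At the 90th percentile of the unrelated tissue genes the count was 4288, with 6 biliary, 15 blood cell, 1 cell division, 14 gastric, pancreatic and lung, 9 transcription factor, 10 fetal, 17 secreted, 23 intestinal, 2 receptor, 5 mesothelial, 9 simple epithelial, 9 stratified and 20 stromal genes. A higher limit takes in more genes by construction. With probe sets averaged per gene, high members numbered 5 biliary, 2 fetal, 2 receptor and 0 unrelated tissue genes, and background members 1 cell division, 5 transcription factor, 6 fetal and 1 receptor gene. In that setting Afp stood at log2 7.42, Hnf4a at 8.65 and Cdx2 at 8.22. With quartiles over genes, 0 blood cell and 0 unrelated tissue genes were high and 5 fetal genes were at background, as were 5 by the class of the mean level. With the arrays numbered 2 alone, a setting added after the data had been seen, 1 cell division gene was at background.

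The F test called 0 genes with the replicate block, with only the 6 arrays, with cyclic loess, centred arrays, array weights, no intensity trend, dim genes left out, each probe set by itself, probe sets averaged and each array left out, with 16 to 203 genes at an unadjusted p under 0.05. With the replicate block and only the 6 arrays, a fit added after the data had been seen, limma called 1 gene, Mycn (adjusted p = 0.000414). The replicate number term called 580 to 732 genes with 1 array left out, 261 without an intensity trend and 507 over the 10 collagen arrays, against 1057, and the cause of these shifts was not tested. Another background correction needs probe-level values and was not run.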
